A study of Mus musculus with 6 samples.

Results

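Voltage-gated sodium and calcium channels and the hyperpolarization-activated HCN channels set how a neuron fires. This account covers their subunit genes in the mouse olfactory mucosa, 43 genes among the 24315 rows of the expression table, chosen by gene symbol: the sodium channel genes named Scn with a number and a or b, all Cacna genes, Cacnb1 to Cacnb4, Cacng1 to Cacng8 and the Hcn genes with a number. The rule used no measured value, though it was set with earlier results of these data known. The 6 libraries came from whole olfactory mucosa of 3 wild type C57BL/6 mice at postnatal day 11. In each mouse 1 nostril was closed and the other was not, and each side gave 1 library, so that 3 closed and 3 open libraries were compared. With no unoperated mice among the samples, a decrease under closure and an increase in the open nostril cannot be told apart. Whole mucosa holds neurons, supporting cells, glands, glia, vessels and connective tissue together, and fewer cells of a type and less RNA per cell cannot be told apart in such samples.

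Olfactory sensory neurons turn an odor into a current through cyclic nucleotide-gated and chloride channels, and voltage-gated channels turn that current into action potentials and, at the axon terminal, into calcium entry and transmitter release. A sodium channel is a single large alpha subunit that forms the pore, joined by small beta subunits that tune gating and also act as adhesion molecules. A calcium channel has a pore-forming alpha1 subunit, joined in most types by a cytoplasmic beta and an extracellular alpha2delta subunit, and HCN channels open on hyperpolarization and bind cyclic AMP. Closing a nostril cuts off odor-laden air on that side, and the comparison asks which transcripts depend on that input.

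Of the 43 channel subunit genes, 22 had a mean of at least 1 FPKM (sequenced fragments per length of transcript, relative to library depth, as the authors deposited them), 12 lay between 0.1 and 1 FPKM, 8 lay below 0.1 FPKM without being at 0 throughout, and Cacng6 was listed at 0 in all 6 libraries. No subunit passed the test between the sides across all genes, as 0.0473% of all rows tested did. Not passing does not show that a gene was unchanged. Scn4b and Scn3b, both beta subunits of sodium channels, had the largest differences toward the open side among the 22, and the calcium channel gene Cacna1b and the pacemaker channel gene Hcn2 leaned toward the closed side by less than their spread allows to call.

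The libraries held 24958172 to 43584803 reads, of which 93.28% to 96.99% were aligned, and the RNA integrity number was 10 in each. Because the values are FPKM and not counts, the counting error of a gene is unknown, and precision rests on 3 libraries per side. Markers placed the tissue as labelled: all 12 genes listed for mature olfactory sensory neurons were detected, and their summed level ranged from 5502 to 6358 FPKM with closure and from 4209 to 5884 FPKM without it. The 12 skeletal muscle genes summed to 4.71 to 14.1 and 5.46 to 7.39 FPKM, with Myh4 at 0 in all 6, and the 10 genes of the olfactory bulb and central neurons to 11.04 to 21.02 and 12.2 to 20.9 FPKM. Other markers from outside the olfactory epithelium were not low. Cartilage and bone genes summed to 445 to 773 FPKM closed, highest in closed library 2, and 340 to 754 FPKM open. Neutrophil genes summed to 439 to 997 and 509 to 935 FPKM. Genes of respiratory and motile ciliated cells summed to 623 to 683 and 599 to 807 FPKM, and those of smooth muscle and pericytes to 428 to 542 and 383 to 592 FPKM. Closed library 1 was the shallowest and carried 11.3% of its FPKM in small RNA rows, against 3.47% to 5.27% in the others.

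Levels spanned a wide range within each channel class. Cacnb3, a cytoplasmic beta subunit of calcium channels, stood highest with a mean of 106.6 FPKM over the 6 libraries, above Hcn2 (44.3), Scn4b (40.9), Cacna1h (35.4), Scn3b (33.6), Scn9a (32.5) and Cacng4 (30.3). Cacnb3 was above Hcn2 in 6 of 6 libraries. From Hcn2 down to Cacng4 neighbours in this order overlapped in their ranges, while Cacng4 was above Cacna1b (13.7 FPKM) without overlap. In most classes 1 gene held most of the summed FPKM: Cacna2d1 held 92.9% to 97.2% of the alpha2delta class, Cacna1d 88.3% to 91.5% of the L-type class, Cacna1b 85.1% to 88.5% of the P/Q-, N- and R-type class, Cacna1h 83.6% to 91.6% of the T-type class and Cacnb3 85.2% to 89.04% of the beta class. Hcn2 held 67.8% to 77.2% of HCN transcripts and Scn9a 55.4% to 63.3% of those of sodium channel alpha subunits. The sodium channel beta class was split between Scn4b (37.9% to 49.4%) and Scn3b (33.2% to 41.4%).

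**Figure D1:**
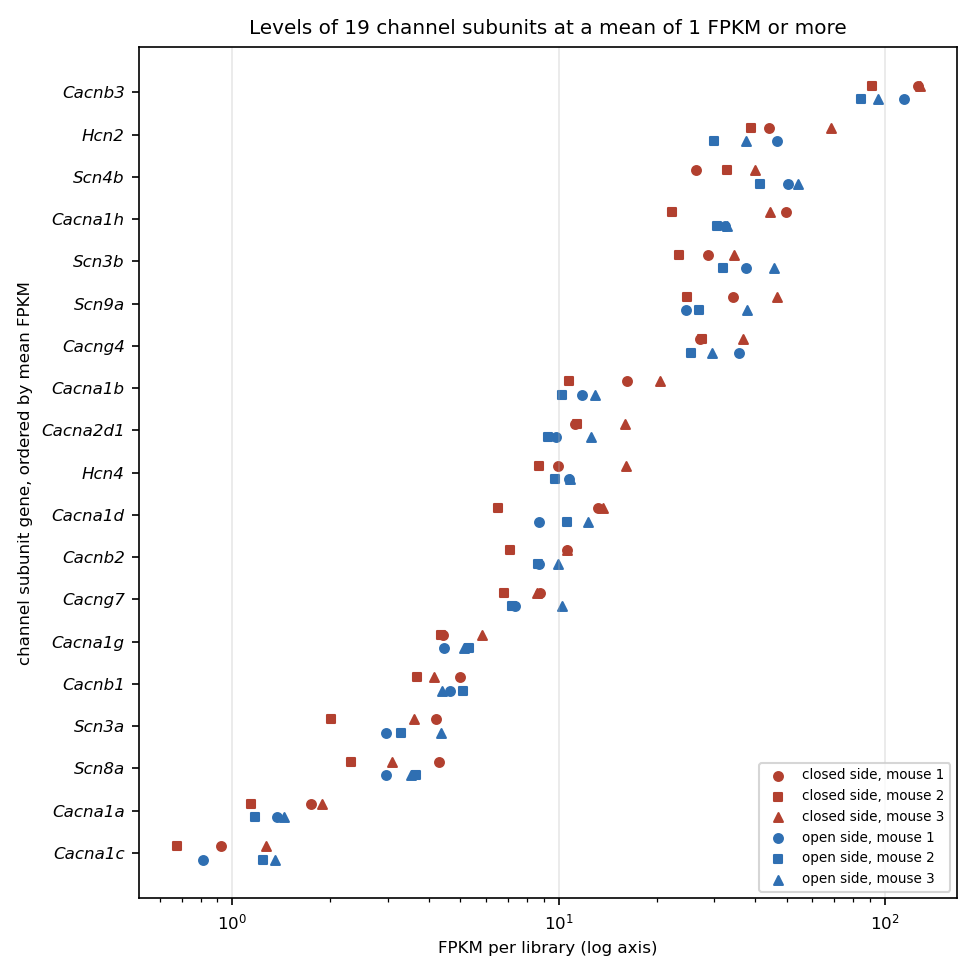
FPKM in each of the 6 libraries (log axis) for 19 channel subunit genes with a mean of at least 1 FPKM, ordered by that mean, with closed libraries in red above open libraries in blue and a symbol for each mouse. Cacnb3 stands alone at the top, and only for Scn4b do the 3 closed libraries all lie below the 3 open ones.

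Scn9a, an alpha subunit that in mice is needed for transmitter release from olfactory sensory axons, measured 34.2, 24.8 and 46.8 FPKM in closed libraries 1, 2 and 3 and 24.6, 27.0 and 37.7 FPKM in the open libraries of the same mice, in that order, which is kept for all genes. The sides overlapped, and mouse 3 was highest on both. Scn3a, prominent in developing neurons, measured 4.21, 2.01 and 3.598 FPKM closed and 2.96, 3.29 and 4.36 FPKM open. Scn8a, a channel of axon initial segments and nodes, measured 4.29, 2.32 and 3.09 FPKM closed and 2.97, 3.66 and 3.53 FPKM open. In both genes closed library 2 was the lowest of all 6, and the sides overlapped. The log2 changes, closed minus open on log2(FPKM + 1), were 0.21 for Scn9a (95% interval -0.33 to 0.76), -0.11 for Scn3a (-0.62 to 0.40) and -0.074 for Scn8a (-0.50 to 0.35).

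The other alpha subunits were low. Scn7a, a relative with a role in sodium sensing, had a mean of 0.463 FPKM. Scn11a, a channel of nociceptive neurons, had 0.198 FPKM, and its 3 closed values (0.268, 0.203 and 0.198 FPKM) lay just above its 3 open values (0.192, 0.162 and 0.168 FPKM), which happened in 2.59% of all rows between 0.1 and 1 FPKM. Scn1a, the skeletal muscle channel Scn4a and the nociceptor channel Scn10a had means of 0.0726, 0.029 and 0.0103 FPKM. Neighbouring genes of this class differed widely in level. In the RefSeq order of GRCm38.p6, Scn1a, Scn9a and Scn7a are successive protein-coding genes, as are Scn10a and Scn11a. Scn2a1, whose symbol falls outside the naming pattern, averaged 0.655 ± 0.0615 FPKM closed and 0.698 ± 0.138 FPKM open (SD, n = 3 each).

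Scn4b, a beta subunit that is bound to the alpha subunit by a disulfide bond and supports resurgent sodium current in other neurons, measured 26.3, 32.9 and 39.9 FPKM closed and 50.4, 41.5 and 54.0 FPKM open. Every closed value lay below every open value, and the closed value was 0.523, 0.792 and 0.74 times the open one within mice 1, 2 and 3. The means were 33.1 ± 6.79 FPKM closed and 48.6 ± 6.41 FPKM open (SD, n = 3 each), a log2 change of -0.55 (SE 0.17, 95% interval -0.94 to -0.17). This did not pass the limma test adjusted over all rows (adjusted p = 0.99999), while the unadjusted limma p was 0.0104 (0.00276 to 0.0427 with 1 library left out in turn). Among all rows tested, 2.09% had closed libraries wholly below open ones, and Scn4b was the only one of the 22 channel subunits that did.

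Scn3b, a beta subunit held without a disulfide bond, measured 28.8, 23.3 and 34.4 FPKM on the closed side and 37.5, 32.0 and 45.8 FPKM on the open side. The sides overlapped, since mouse 3 was the highest on each side, but within mice the ratio of closed to open was nearly constant at 0.768, 0.73 and 0.75. The log2 change was -0.40 (SE 0.17, 95% interval -0.80 to -0.0034), with an adjusted limma p of 0.99999 and an unadjusted limma p of 0.0485. With 1 library left out in turn that unadjusted limma p ranged from 0.0171 to 0.176. With the mouse as a block the SE of Scn3b was 0.088 and that of Scn4b 0.14. The unadjusted limma p in that blocked fit was 0.00383 for Scn3b and 0.00693 for Scn4b. Neither passed limma's test over all rows there (adjusted p = 0.99999 for each).

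Scn2b, a further beta subunit, stood at a mean of 0.92 FPKM. Summed over the class, sodium channel beta subunits came to 69.5, 70.3 and 88.1 FPKM closed and 102.02, 88.7 and 114.8 FPKM open, without overlap. The alpha subunits summed to 58.7, 41.4 and 73.9 FPKM closed and 44.4, 47.8 and 60.6 FPKM open, with overlap. Within a library the ratio of Scn4b to Scn9a was 0.771, 1.33 and 0.854 closed and 2.05, 1.54 and 1.43 open. That ratio was chosen after the values were seen, and is given without a test. The ratio of Scn3b to Scn9a separated the sides too, while all other ratios looked at overlapped. Among those was Scn4b to Scn3b, at 0.915, 1.41 and 1.16 closed and 1.35, 1.30 and 1.18 open. Omp, the olfactory marker protein of mature neurons, measured 1916, 2126 and 2176 FPKM closed and 2212, 1414 and 1652 FPKM open, with overlap. Of the 12 markers of mature neurons 11 leaned to the closed side and the list's median log2 change was 0.26, while Slc17a6, a vesicular glutamate transporter, measured 16.5, 20.5 and 26.4 FPKM closed and 29.5, 23.3 and 33.6 FPKM open, below open within 3 of 3 mice. Of 8 sustentacular and 8 glial markers, 7 in each list were below 0, with medians of -0.18 and -0.22. Horizontal basal cells, endothelium and macrophages had 5 markers each, all below 0, with medians of -0.27, -0.17 and -0.17. Other lists leaned to the closed side. Above 0 were 7 of 10 markers of immature neurons (median 0.075) and 6 of 7 of globose basal and dividing cells (0.11). So were 5 of 6 neutrophil markers (0.49) and 4 of 5 of cartilage and bone (0.051). Of all rows tested 53.99% were below 0. None of these markers passed limma over all rows, and the part of cell makeup in the values of Scn4b and Scn3b was not tested.

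**Figure D2:**
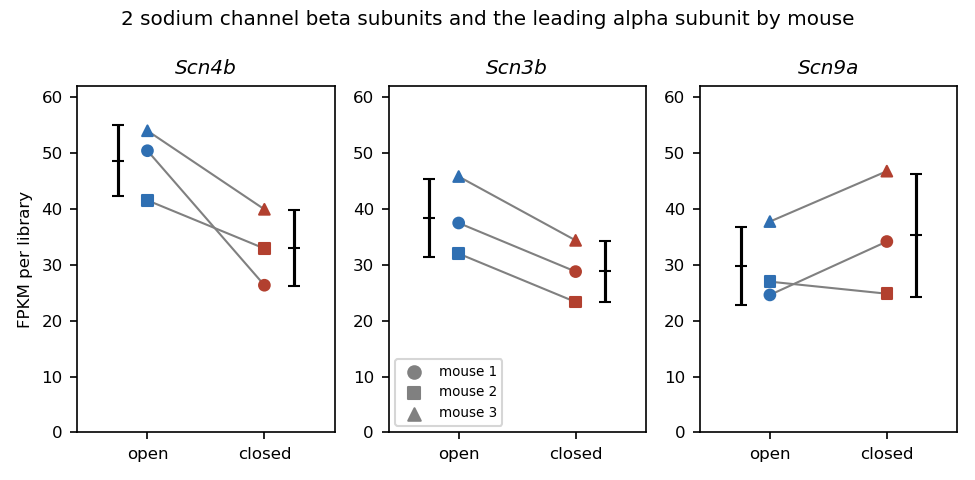
FPKM of Scn4b, Scn3b and Scn9a on the open and closed side, with a grey line joining the sides of each mouse and black bars for the mean ± SD of 3 libraries. The lines of Scn4b and Scn3b run down in 3 of 3 mice, and those of Scn9a run up in mice 1 and 3 and slightly down in mouse 2.

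Scn2b and Scn4b are successive protein-coding genes in the RefSeq order of GRCm38.p6, although Scn4b stood at 40.9 and Scn2b at 0.92 FPKM. Their upstream sequences are shown because the neighbours differ so widely in level, together with those of Scn9a, the leading sodium channel alpha subunit, and Cacna1b, the leading calcium channel alpha1 subunit among those not of the L or T type. Each is the 250 bases before the start annotated by RefSeq, 5′ to 3′ on the strand of the gene. Capitals mark TGACG, the core of the cyclic AMP response element, on either strand.
Scn4b, chr9:45138374-45138623, plus strand: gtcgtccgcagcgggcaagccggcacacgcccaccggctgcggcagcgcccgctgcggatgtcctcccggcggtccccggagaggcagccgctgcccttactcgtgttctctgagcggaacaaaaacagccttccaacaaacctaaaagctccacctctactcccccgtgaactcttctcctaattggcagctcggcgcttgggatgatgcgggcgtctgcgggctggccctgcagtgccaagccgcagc
Scn2b, chr9:45117626-45117875, plus strand: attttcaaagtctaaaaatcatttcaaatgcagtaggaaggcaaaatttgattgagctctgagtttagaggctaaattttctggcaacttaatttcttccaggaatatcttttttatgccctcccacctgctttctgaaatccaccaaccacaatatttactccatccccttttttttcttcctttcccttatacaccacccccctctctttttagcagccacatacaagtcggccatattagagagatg
Scn9a, chr2:66634963-66635212, minus strand: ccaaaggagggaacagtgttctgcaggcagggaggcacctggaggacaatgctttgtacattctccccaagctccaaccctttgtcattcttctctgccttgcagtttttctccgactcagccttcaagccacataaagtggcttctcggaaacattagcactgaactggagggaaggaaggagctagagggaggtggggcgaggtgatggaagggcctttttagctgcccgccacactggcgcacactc
Cacna1b, chr2:24763153-24763402, minus strand: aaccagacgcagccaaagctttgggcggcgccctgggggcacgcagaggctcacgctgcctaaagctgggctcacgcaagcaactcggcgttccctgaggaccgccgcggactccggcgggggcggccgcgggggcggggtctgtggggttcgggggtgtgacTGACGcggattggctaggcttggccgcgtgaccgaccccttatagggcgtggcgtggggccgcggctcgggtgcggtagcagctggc

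The upstream sequence of Scn4b holds 66.0% G and C and that of Scn2b 38.4%, with 54.4% for Scn9a and 72.0% for Cacna1b. TGACG was found once upstream of Cacna1b and not in the other 3 sequences. Among the 22 channel subunits at 1 FPKM or more, 13 had an upstream sequence in the RefSeq table, and 4 of these held TGACG (Cacna1b, Cacna1c, Cacna2d1 and Cacnb2), 30.8% against 19.8% of the 27025 genes with such a sequence. Of the 18 lower subunits with an upstream sequence 2 held it, which makes 6 of 31 in all, or 19.4%, close to the share of all genes. The whole palindrome TGACGTCA, which contains TGACG, was in none of the 13 and in 1.77% of all genes, and TCCC and GGGA with 2 bases between, the site of the Olf and Ebf factors of olfactory neurons, was in none of the 13 and in 0.914% of all genes. Each search covered both strands, and a match describes letters and not a bound site.

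Among calcium channel alpha1 subunits, Cacna1h, a T-type channel that opens near the resting potential, measured 49.8, 22.2 and 44.4 FPKM on the closed side and 32.5, 30.6 and 32.7 FPKM on the open side. The open libraries were close together, while the closed ones lay on either side of them, with closed library 2 the lowest of all 6. The log2 change was 0.19 (95% interval -0.41 to 0.80), and it became 0.54 without closed replicate 2, where the adjusted limma p was 0.775, and -0.021 without closed replicate 1. Cacna1g, the other T-type gene at 1 FPKM or more, measured 4.44, 4.35 and 5.81 FPKM closed and 4.46, 5.32 and 5.13 FPKM open, and Cacna1i had a mean of 0.0729 FPKM.

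Cacna1b, the N-type channel of presynaptic terminals, measured 16.2, 10.8 and 20.5 FPKM on the closed side and 11.8, 10.3 and 12.9 FPKM on the open side. Closed exceeded open in 3 of 3 mice, as in 7.41% of all rows, though the sides overlapped through closed library 2. Its log2 change was 0.37 (SE 0.21, 95% interval -0.11 to 0.85) with an adjusted limma p of 0.99999, and the unadjusted limma p was 0.116 without and 0.0335 with the mouse as a block. It stood at 0.61 without closed replicate 2 and at 0.17 without closed replicate 3. Cacna1a, the P/Q-type channel, measured 1.75, 1.14 and 1.89 FPKM closed and 1.37, 1.17 and 1.44 FPKM open, and the R-type gene Cacna1e had a mean of 0.605 FPKM.

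Cacna1d, an L-type channel that activates at fairly negative potentials, measured 13.2, 6.51 and 13.6 FPKM closed and 8.72, 10.6 and 12.3 FPKM open, with a log2 change of 0.020 and a 95% interval from -0.57 to 0.61. Closed library 2 was again the lowest. Cacna1c, the L-type channel of heart and smooth muscle, measured 0.923, 0.675 and 1.27 FPKM closed and 0.812, 1.24 and 1.35 FPKM open. Cacna1f, a channel of photoreceptors, and Cacna1s, that of skeletal muscle, had means of 0.0948 and 0.0605 FPKM.

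Auxiliary calcium channel subunits were led by Cacnb3, which measured 126.3, 91.4 and 128.0 FPKM on the closed side and 114.5, 84.6 and 94.97 FPKM on the open side. Closed exceeded open in 3 of 3 mice, with overlap between the sides and a log2 change of 0.23 (95% interval -0.17 to 0.62). It ranged from 0.13 without open replicate 2 to 0.38 without closed replicate 2. Cacnb2 measured 10.6, 7.08 and 10.6 FPKM closed and 8.68, 8.62 and 9.97 FPKM open. Cacnb1, the beta subunit of skeletal muscle channels that other tissues also express, measured 4.99, 3.69 and 4.16 FPKM closed and 4.66, 5.08 and 4.40 FPKM open. Both overlapped between the sides, and Cacnb4 had a mean of 0.992 FPKM.

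Cacna2d1, an alpha2delta subunit that raises the number of calcium channels at the membrane and binds gabapentin, measured 11.2, 11.4 and 16.03 FPKM closed and 9.81, 9.28 and 12.6 FPKM open. Closed exceeded open in 3 of 3 mice, with a log2 change of 0.26 (95% interval -0.13 to 0.65), which was 0.10 without closed replicate 3. The unadjusted limma p was 0.163 without and 0.041 with the mouse as a block. Neither fit called it by limma over all rows (adjusted p = 0.99999 in both). Cacna2d2 was low but separated the sides, with 0.274, 0.263 and 0.26 FPKM closed and 0.378, 0.314 and 0.373 FPKM open, as did 4.72% of all rows between 0.1 and 1 FPKM in that direction. Cacna2d3 and Cacna2d4 had means of 0.244 and 0.128 FPKM.

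The gamma family holds a subunit of muscle calcium channels and, under the same gene names, regulators of AMPA-type glutamate receptors. Cacng4, of the latter kind, measured 27.0, 27.6 and 36.7 FPKM closed and 35.6, 25.4 and 29.6 FPKM open, and Cacng7, a relative in that group, 8.78, 6.82 and 8.56 FPKM closed and 7.37, 7.20 and 10.3 FPKM open. Their log2 changes were 0.0097 and -0.026, with 95% intervals of -0.36 to 0.38 and -0.40 to 0.34. Cacng1, Cacng4 and Cacng5 are successive protein-coding genes, yet Cacng1, the muscle subunit, and Cacng5 had means of 0.163 and 0.377 FPKM. Likewise Cacng7, Cacng8 and Cacng6 follow each other, and Cacng8 averaged 0.166 FPKM with 3 libraries at 0. Cacng2, known as stargazin, and Cacng3 had means of 0.0982 and 0.0822 FPKM.

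Hcn2, the most abundant of the pacemaker channel genes, measured 44.2, 39.0 and 68.3 FPKM on the closed side and 46.6, 29.9 and 37.6 FPKM on the open side. Closed exceeded open in mice 2 and 3 and lay slightly below it in mouse 1. The log2 change was 0.38 (SE 0.23, 95% interval -0.15 to 0.91), with adjusted p = 0.99999 by limma. It ranged from 0.14 without closed replicate 3 to 0.54 without closed replicate 2. Hcn4, the main channel of the cardiac pacemaker, measured 9.96, 8.68 and 16.1 FPKM closed and 10.8, 9.75 and 10.9 FPKM open. Closed library 3 alone stood out in both genes. Hcn3 had a mean of 0.919 FPKM.

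**Figure D3:**
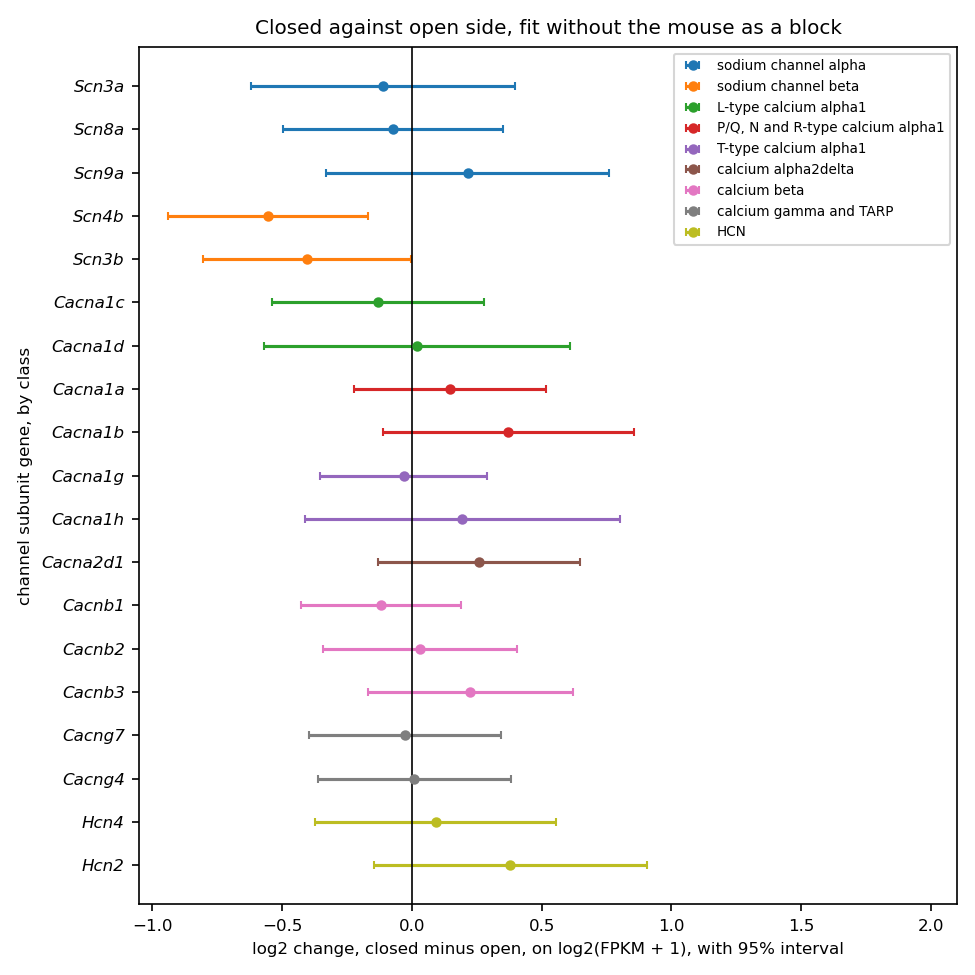
Log2 change, closed minus open, on log2(FPKM + 1) for 19 channel subunit genes at a mean of 1 FPKM or more, grouped and coloured by class, with points for the estimate and bars for its 95% interval. In this fit, without the mouse as a block, the intervals of Scn4b and Scn3b end below 0, that of Scn3b only just. The intervals of the other 17 genes include 0. With the block the unadjusted limma p was under 0.05 for Cacna1b (0.0335) and Cacna2d1 (0.041) too.

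Taken over all classes, none of the 22 channel subunits tested passed limma with Benjamini-Hochberg adjustment over all 14788 rows, where 0.0473% of rows were called in either direction, 0.0406% lower and 0.00676% higher. None did with the mouse as a block, where 0.0338% of rows were called, 0.027% lower and 0.00676% higher. At an unadjusted limma p under 0.05 there were 2 channel subunits lower and none higher on the closed side, against 0.866% of all rows lower, 0.588% higher and 1.45% in either direction. That count depended on the libraries used. With 1 library left out in turn 1 to 3 subunits were lower, where 0.974% to 3.52% of all rows were under 0.05 in either direction. Without closed library 2 there were 1 lower and 4 higher, against 1.42% and 2.1% of all rows. The count was 1 lower and none higher with quantile normalization, with median-ratio scaling and without small RNA rows, where the unadjusted limma p of Scn3b was 0.0578, 0.0527 and 0.094. Under these settings 1.53%, 1.43% and 1.26% of all rows were under 0.05 in either direction. With the block 2 were lower (Scn4b and Scn3b) and 2 higher (Cacna1b and Cacna2d1), against 1.30% and 1.08% of all rows and 2.37% in either direction. No subunit at 1 FPKM or more had its closed libraries wholly above the open ones, which 1.28% of rows had. The median log2 change of the 22 was 0.015 and that of all rows -0.01, and 10 of the 22 were below 0, as were 53.99% of all rows. Single libraries set this balance. Without closed replicate 2 the median of the 22 was 0.16 with 6 below 0, against 49.04% of all rows. Without closed replicate 3 it was -0.066 with 16 below 0, against 51.8% of all rows. Among the 19 named here, closed values were lower in 3 of 3 mice for 2 (Scn4b and Scn3b), against 9.18% of all rows, and higher in 3 of 3 mice for 3 (Cacnb3, Cacna1b and Cacna2d1), against 7.41%. Of the 12 subunits between 0.1 and 1 FPKM, fitted on log2(FPKM + 0.1) with a floor of 0.1 FPKM, none was called by limma, where 0.0334% of 17987 rows were, nor had any an unadjusted p under 0.05, where 1.75% of rows did.

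Single libraries stood apart across the channel subunits. Of the 22, 15 had their lowest value in closed library 2 and 11 their highest in closed library 3. The median deviation from the mean of each gene over the 6 libraries, on log2(FPKM + 1), was 0.10, -0.28 and 0.23 in closed libraries 1, 2 and 3 and -0.073, -0.095 and 0.072 in open libraries 1, 2 and 3. Over all 14788 rows these medians lay between -0.042 and 0.033. Most of the subunits have long transcripts, 14 of the 22 reaching 5000 bases in the GENCODE M21 annotation, and the 3070 other rows of that length had medians of -0.0075, -0.14 and 0.12 in the closed and -0.12, 0.052 and 0.093 in the open libraries. The authors' coverage uniformity score, a median coefficient of variation, was highest in closed library 2 (0.48) and lowest in closed library 3 (0.45). The part of length and coverage in these values was not tested. Scn4b and Scn3b have longest transcripts of 4982 and 4150 bases.

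**Figure D4:**
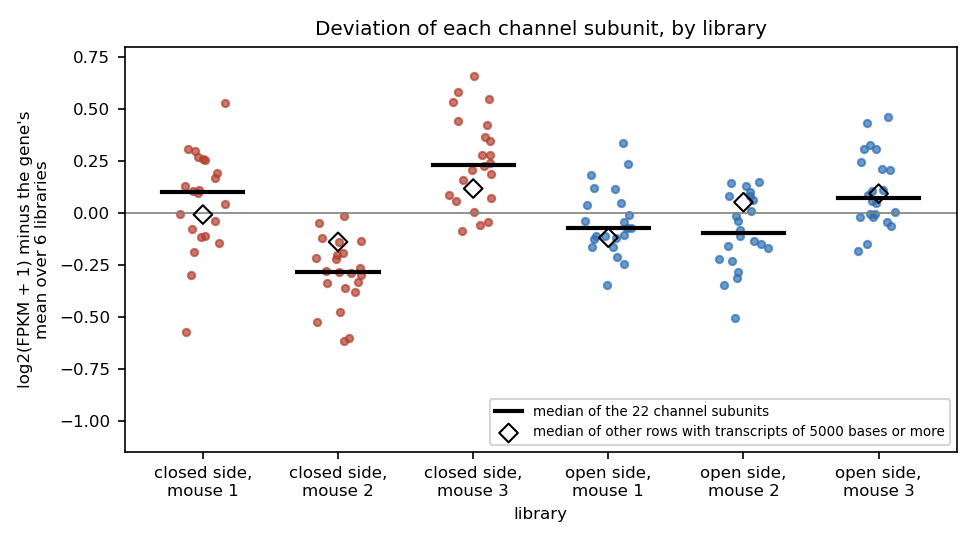
Deviation of each of the 22 channel subunits from its own mean over the 6 libraries on log2(FPKM + 1), by library, with points for genes, black bars for their median and open diamonds for the median of other rows with transcripts of 5000 bases or more. Closed library 2 sits low, with a median of -0.28, and closed library 3 high, with 0.23, though both are from the closed side.

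Genes whose proteins bind or regulate these channels were tested in the same fit. Of 18 sodium channel partners and axon initial segment genes at 1 FPKM or more, none passed the test in either direction. Those with the lowest p were the adhesion protein gene Cntnap2 (log2 change -0.28), Fgf12, an intracellular relative of fibroblast growth factors that binds sodium channels (-0.26), and the spectrin gene Sptbn4 (0.26). Of 20 calcium channel partners none passed either. Rims3, of the active zone, measured 62.4, 34.7 and 86.7 FPKM closed and 26.1, 24.1 and 27.2 FPKM open. Its closed values lay wholly above the open ones, as in 1.28% of all rows. Its log2 change was 1.12 (SE 0.28), with adjusted p = 0.99999 by limma and 0.861 with the mouse as a block. Gem, a small GTPase that inhibits calcium channels, measured 1.54, 1.82 and 1.76 FPKM closed and 2.06, 2.75 and 3.02 FPKM open and its log2 change was -0.41, with adjusted p = 0.99999 by limma. Closed values lay wholly below open ones in Gem, as in 2.09% of all rows. The same held for Cntnap2, at 2.13 to 2.30 FPKM closed and 2.44 to 3.63 FPKM open. The adaptor Stac stood at -0.26. In Rims3 closed library 2 was the lowest of the closed side and closed library 3 the highest, as in most channel subunits, while in Gem the lowest was closed library 1. None of 4 HCN partners passed, with Pex5l, an accessory protein of HCN channels, at 34.8 ± 6.19 FPKM closed and 32.6 ± 2.76 FPKM open (SD, n = 3 each), Grasp at a log2 change of -0.15 and Magi2 at 0.063. Nor did any of 6 related channel genes outside the naming pattern, where Tmem37, Catsper2 and Tpcn2 stood at 0.087, -0.11 and -0.080.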

How the data were processed

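RNA was isolated with a Qiagen column kit (RNeasy micro) and made into TruSeq libraries, per the labels' protocols. The authors deposited FPKM per gene and library. The submitters' processing notes name Cufflinks and the build mm9, while aligner, annotation and strand marking were not stated in what was used here, so reads of a gene and an antisense transcript cannot be told apart. Per library, the authors' deposited sheet adds the read count, the aligned fraction (here a percent), the RNA integrity number, a coverage score and a 28S over 18S ratio. It also states that same-numbered libraries come from 1 mouse. Deviations of such libraries from their side means correlated across genes at 0.15, 0.076 and 0.21 for mice 1, 2 and 3, against -0.17 to 0.0082 between mice.

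The 14788 rows averaging 1 FPKM or more were fitted with limma 3.58.1 in R 4.3.3 on log2(FPKM + 1), closed against open, with a variance trend and Benjamini-Hochberg adjustment at 0.05 over all rows. The scale understates changes of low genes. The mouse as a block was an alternative, printed where it bears on a result. The fits were also run on simulated libraries with known changes and no shared mouse effect. These cannot test the block, and no result rests on them. The gene symbols, lists and tests were chosen with earlier results of these data known. Of the 22 subunits at 1 FPKM or more, 19 are named with their 6 values and 3 are in the counts and sums but not reported here by name, and of each partner list the 3 genes with the lowest p. Upstream sequences are RefSeq's on GRCm38.p6, another build than mm9, and are no measurement of these libraries.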

Additional observations from a re-analysis of the deposited data

How the results depend on the processing

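The count of channel subunits called was 0 in each direction under all 17 alternatives. Over all rows, 6 were called lower and 1 higher. With no floor 3 were called lower, and without small RNA rows none was called higher. With single libraries left out, 3 to 10 were called lower and 1 to 2 higher. The replicate block (the mouse) called 4 lower and 1 higher, and no channel subunit.

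All 22 subunits kept their direction wherever they were fitted under the 11 alternatives that keep every library. With a floor of 5 FPKM only 15 were fitted. Changing the floor, the block or the variance estimate leaves a log2 change as it was. Only another pseudocount or scaling could have turned a direction. With 1 library left out in turn, 9 of the 19 named kept their direction, among them Scn4b (-0.70 to -0.41) and Scn3b (-0.54 to -0.27). The other 10 took both signs: Cacna1d from -0.15 to 0.33, Cacna1g from -0.14 to 0.031, Cacna1h from -0.021 to 0.54, Cacnb2 from -0.058 to 0.21, Cacng4 from -0.13 to 0.13, Cacng7 from -0.11 to 0.12, Hcn4 from -0.15 to 0.26, Scn3a from -0.27 to 0.12, Scn8a from -0.25 to 0.089 and Scn9a from -0.0067 to 0.44. The cause was not tested. Depth per gene is unknown with FPKM, and values below 0.1 FPKM were not fitted for these genes except with no floor.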
